A study of Rattus norvegicus with 15 samples.

Results

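Peroxisomal genes were examined in the livers of rats fed 1 of 3 diets. The set comprised 44 genes for peroxisomal enzymes, transporters and peroxins. For each gene the probe set with the highest mean over all 15 arrays was used, and only probe sets whose annotation named no other gene counted. Of the 44 genes, 42 had such a probe set, among 14217 genes of the whole array that had one. The thiolase genes Acaa1a and Acaa1b had none, because their probe set is annotated to both, and no value is given for them. Agps and Abcd2 lay below the filter on dim probe sets, at mean levels of -0.80 and -1.40, which left 40 genes for testing. Male Sprague-Dawley rats, 4 weeks old at the start, were adapted for 5 days. For 14 days they were then fed 1 of 3 diets: genistein at 2 g/kg, daidzein at 2 g/kg, or no isoflavone (control). The purified basal diet of casein, palm oil, starch and sucrose was the same for all groups. Liver RNA of 5 rats per diet was hybridised, with 1 array per rat. Both compounds are isoflavones of soy that differ by a hydroxyl group present on genistein and absent from daidzein. The question was how the pair compare with each other and with the isoflavone-free diet.

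Peroxisomes shorten very long-chain and branched fatty acids by β-oxidation, complete the side chain of bile acids, start the synthesis of ether lipids, and house oxidases whose hydrogen peroxide is degraded by catalase. Peroxins build the organelle and import its matrix proteins. In rodent liver many of these genes are transcribed under control of the nuclear receptor PPARα, and drugs that activate PPARα enlarge the peroxisome population.

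The promoters of these genes were mostly rich in GC. RefSeq promoter sequences (assembly GRCr8) matched 40 of the 44 genes, and the 250 bases before the annotated start were read. These 40 are not the same as the 40 tested genes. They include Acaa1a, Acaa1b, Agps and Abcd2, which were not tested, and lack Ech1, Ephx2, Pex2 and Pex6, which were. The median GC content was 58.8% for the peroxisomal genes, against 51.2% for all 33469 promoters of the table, and the median number of CpG dinucleotides was 13, against 5. A GC content under 50% was found in 12.5% of the peroxisomal genes, against 44.7% of all promoters. The 5 genes concerned were Hao2 with 33.2%, Hao1 with 38%, Uox and Pex14 with 44% each, and Pex7 with 49.6%. Short motifs were searched on both strands. The GC box GGGCGG was present in 65% of the peroxisomal promoters and 30.5% of all, CCAAT in 42.5% and 34.0%, TATAAA in 7.5% and 12.9%, and the nuclear receptor half-site AGGTCA in 20% and 14.1%. The direct repeat AGGNCANAGGNCA, of the form that PPARα binds with its partner RXR, was in none of the 40 windows and in 0.368% of all. These are matches of letters and not measured binding. The 4 promoters below are those of genes on which the comparisons turn: Hao1, the gene that passed the test, Scp2 and Ehhadh, with the lowest p for daidzein, and Pecr, whose arrays did not overlap between the isoflavone diets. They are printed 5′ to 3′ on the strand of the gene, ending before the outermost start in the table, and capitals mark matches to these short motifs on either strand. Their GRCr8 positions are chr3:142281528-142281744 (minus strand) for Hao1, chr5:128110016-128110265 (minus) for Scp2, chr11:92746159-92746408 (plus) for Ehhadh and chr9:81375810-81376056 (minus) for Pecr.
Hao1: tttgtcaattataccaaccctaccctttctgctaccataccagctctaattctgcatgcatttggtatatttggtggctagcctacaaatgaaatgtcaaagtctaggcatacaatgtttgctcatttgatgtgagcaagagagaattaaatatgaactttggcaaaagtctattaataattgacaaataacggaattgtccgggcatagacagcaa
Scp2: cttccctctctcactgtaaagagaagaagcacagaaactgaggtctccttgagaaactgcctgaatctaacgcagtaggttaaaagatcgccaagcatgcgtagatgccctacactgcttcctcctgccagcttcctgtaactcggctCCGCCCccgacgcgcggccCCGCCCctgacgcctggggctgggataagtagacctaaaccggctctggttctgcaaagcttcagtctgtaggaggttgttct
Ehhadh: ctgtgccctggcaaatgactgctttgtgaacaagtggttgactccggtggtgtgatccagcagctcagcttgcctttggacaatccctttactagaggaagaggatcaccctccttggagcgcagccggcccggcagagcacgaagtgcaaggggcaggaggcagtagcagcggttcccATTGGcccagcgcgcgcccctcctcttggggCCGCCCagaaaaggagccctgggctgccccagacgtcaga
Pecr: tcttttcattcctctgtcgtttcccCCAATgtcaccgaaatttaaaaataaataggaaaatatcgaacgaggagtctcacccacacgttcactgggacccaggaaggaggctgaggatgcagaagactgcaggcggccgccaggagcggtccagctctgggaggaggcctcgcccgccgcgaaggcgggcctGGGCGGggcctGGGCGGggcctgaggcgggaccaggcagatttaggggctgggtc
The Hao1 stretch of 217 bases held 0 of these motifs and 36.9% GC. The Scp2 stretch held 2 GC boxes, that of Ehhadh 1 GC box and 1 CCAAT box, and that of Pecr 2 GC boxes and 1 CCAAT box.

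The values are signals of a 1-channel rat expression array on a rebuilt log2 scale with an arbitrary zero, so levels of different genes are not compared. Correlations between arrays across the tested probe sets lay between 0.931 and 0.969. Of 10 hepatocyte markers 9 had a probe set, and all were above the filter. Their mean level ranged from 7.44 to 7.57 over the genistein livers, from 7.49 to 7.65 over the daidzein livers and from 7.53 to 7.72 over the control livers. The array daidzein 5 stood apart: its mean level over 5 markers of the exocrine pancreas was 6.69, while the other 14 arrays lay between -0.15 and 0.61. Stellate cell markers averaged 1.41 to 1.66 over the daidzein livers and 1.72 to 1.82 over the control livers, and 7 of 8 had a negative change. Kupffer cell markers averaged 1.98 to 2.42 over the daidzein livers and 2.36 to 2.70 over the control livers, with 5 of 6 negative. The part of these cells in the values below was not tested. Because of the pancreatic transcripts, many but not all results that involve the daidzein group are also given without daidzein 5. Ranges over groups of genes and counts of genes whose arrays do not overlap include daidzein 5. So does every value for which no second value is given. The fit without it was compared for 26 changes: daidzein over control in the 11 genes of the plot of levels by array, and genistein over daidzein in these and in Dao, Phyh, Pex3 and Pex14. Leaving it out moved none of the 26 by more than 0.073 log2 units, turned 0 signs and made 0 pass.

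With genistein, 1 of the 40 tested peroxisomal genes passed the test and 39 did not. Hao1, which encodes the glycolate oxidase of liver peroxisomes, fell. Of the 18625 probe sets tested, 0.322% passed in this comparison, made up of 0.172% lower and 0.15% higher (adjusted p under 0.05, limma with Benjamini-Hochberg adjustment over all of them). At an unadjusted p under 0.05 there were 13 genes, 5 with a positive and 8 with a negative change, which is 32.5% against 11% of all probe sets (5.45% positive, 5.5% negative). With array medians aligned in place of quantile normalization there were 5, 2 positive and 3 negative, which is 12.5% against 7.27%. In 4 genes, Nudt7, Hao1, Dao and Pex14, all 5 genistein livers lay below all 5 control livers, against 1.35% of all probe sets, and in 0 genes did they all lie above, against 1.21%. The median log2 change of the 40 genes was -0.04, beside a median near 0 of all probe sets, with 18 positive and 22 negative changes. It lay nearer 0 in other fits, at -0.011 with medians aligned, -0.0089 without control 5, -0.010 without genistein 2 and 0.00047 without genistein 5, and at -0.057 without control 1. The 95% confidence interval lay within ±0.5 log2 units for 26 genes. In RNA of whole liver, fewer cells of a type and less RNA per cell cannot be told apart.

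With daidzein, 0 of the 40 genes passed (0.0161% of all probe sets did), and the lowest adjusted p among them was 0.346. At an unadjusted p under 0.05 there were 4 genes, 1 with a positive and 3 with a negative change, which is 10% against 8.25% of all probe sets (4.1% positive, 4.14% negative). With medians aligned there was 1, which is 2.5% against 4.94%. Without daidzein 5 there were 4, 2 positive and 2 negative, which is 10% against 7.54%. All daidzein livers lay below all control livers for Scp2 and Hao1, against 0.94% of all probe sets, and in 0 genes did they all lie above, against an equal 0.94%. The median log2 change was 0.06, and 0.07 without daidzein 5, when still 0 genes passed. It was 0.02 without control 1. The interval lay within ±0.5 for 28 genes. Both comparisons with the control diet share the 5 control arrays.

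Between the isoflavones at the same dose and time, 0 of the 40 genes passed (0.113% of all probe sets did), with and without daidzein 5. The lowest adjusted p was 0.0879, for Decr2. There were 9 genes with an unadjusted p under 0.05, 1 with a positive and 8 with a negative change for genistein over daidzein, which is 22.5% against 9.37% of all probe sets (4.64% positive, 4.73% negative). With medians aligned there were 4, all negative, which is 10% against 6.28%. Without daidzein 5 there were 8, all negative, which is 20% against 9.41%. All genistein livers lay below all daidzein livers for Decr2, Pecr and Nudt7, against 1.06% of all probe sets, and in 0 genes did they all lie above, against 0.966%. The median log2 change was -0.032, and lay between -0.0018 (without daidzein 4) and -0.062 (without genistein 1) with 1 array left out. The interval lay within ±0.5 for 27 genes, so for the other 13 a difference between the isoflavones of more than 0.5 is within what the data allow.

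**Figure D1:**
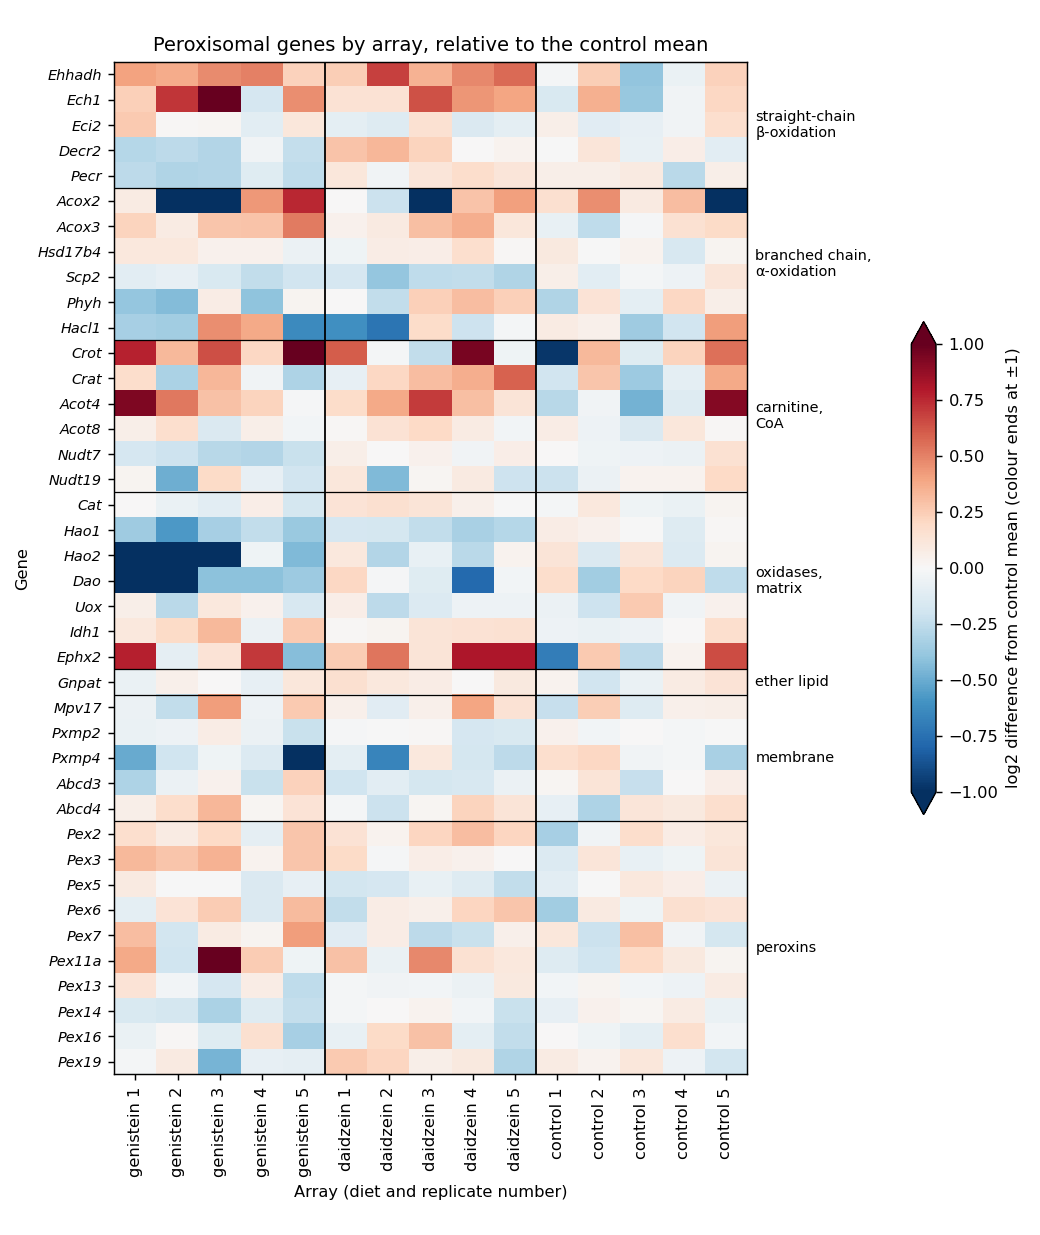
Heat map of the 40 tested peroxisomal genes (rows, by role) in the 15 arrays (columns, by diet and replicate number), coloured by the log2 difference from the mean of the 5 control arrays, with colours ending at ±1. Hao1, Nudt7 and Pex14 are among the genes below the control mean in all genistein arrays, as are Decr2, Pecr, Scp2, Hao2, Dao and Pxmp4. Hao2 lies past the colour end in genistein 1, 2 and 3, and Dao in genistein 1 and 2. Acox2, Crot and Ephx2 vary within every diet.

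**Figure D2:**
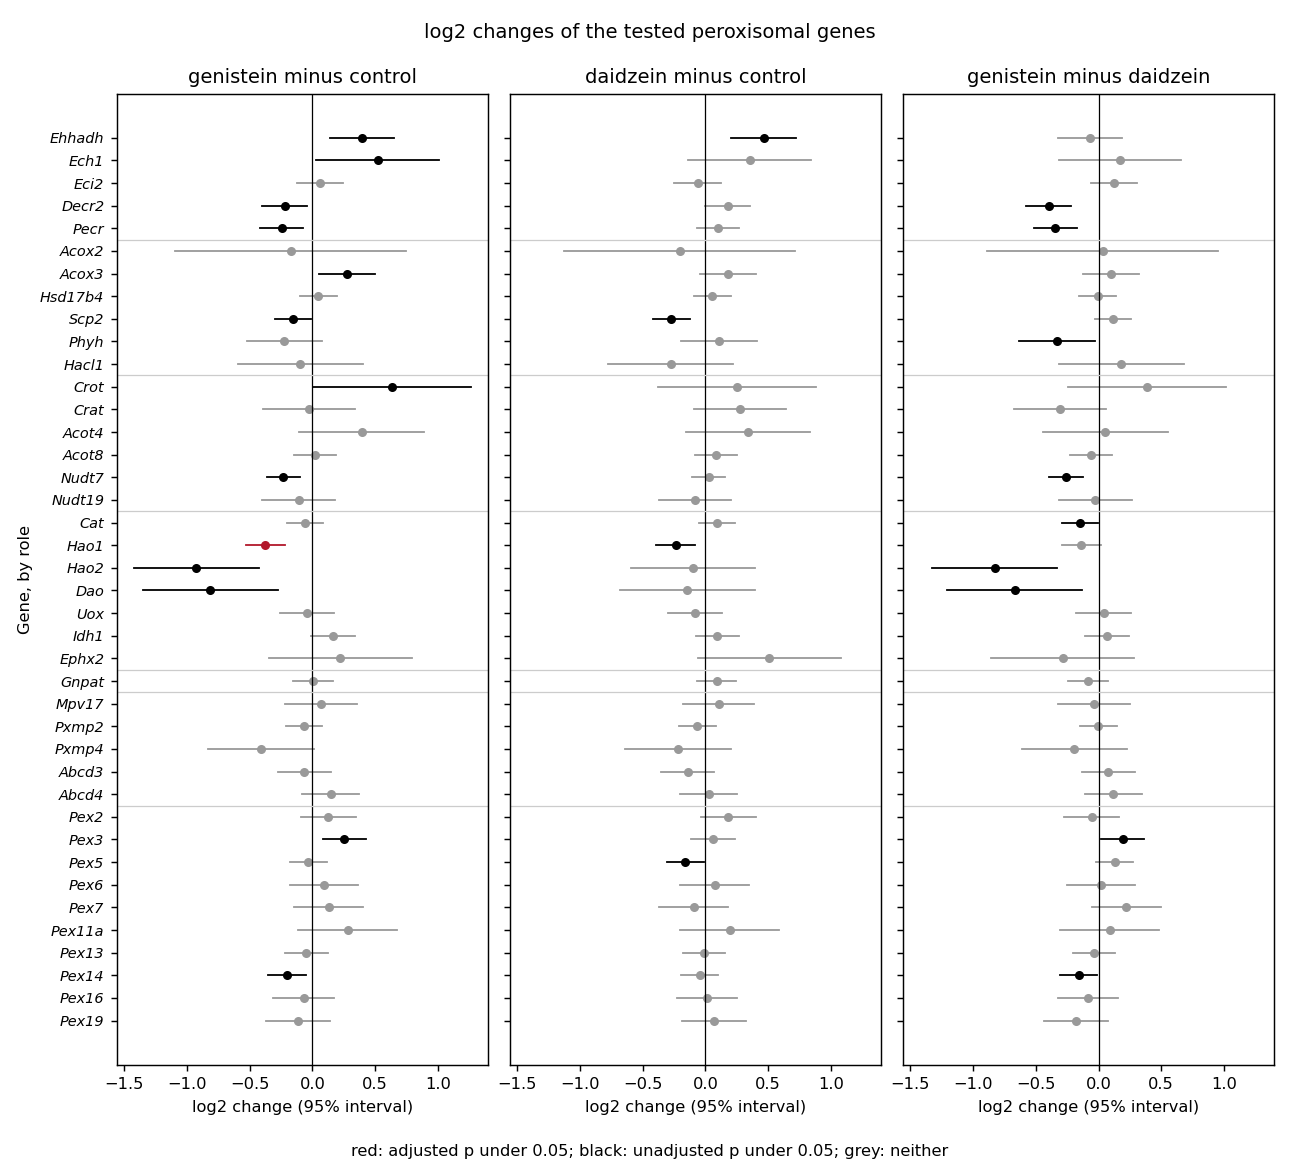
log2 changes of the 40 genes with 95% confidence intervals for genistein minus control, daidzein minus control and genistein minus daidzein, grouped by role, with red for an adjusted p under 0.05, black for an unadjusted p under 0.05 and grey for neither. Hao1 with genistein is the only red point, and the widest intervals are those of Acox2.

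Among the oxidases and other matrix enzymes, 1 of 7 genes passed with genistein, 0 with daidzein and 0 between the isoflavones. Hao1 levels were 6.34, 6.12, 6.37, 6.45 and 6.32 in genistein 1 to 5, 6.53, 6.52, 6.45, 6.38 and 6.41 in daidzein 1 to 5, and 6.77, 6.74, 6.69, 6.57 and 6.71 in control 1 to 5. The control livers were the highest, with no overlap with either isoflavone group, whereas the isoflavone groups overlapped. Hao1 averaged 6.32 ± 0.12 with genistein, 6.46 ± 0.07 with daidzein and 6.70 ± 0.08 on the control diet (SD, n = 5 each). The log2 change was -0.37 ± 0.07 (SE) for genistein over control, 1.3-fold lower, with an adjusted p of 0.0455. The 9 hepatocyte markers had a median log2 change of -0.03 in this comparison, with 5 negative and 3 positive. The remaining marker, Alb, had a change of exactly 0 in every comparison after quantile normalization and carries no information here. The markers ran from -1.02 (Tat, adjusted p = 0.222) to 0.13 (Cps1), and their part in the Hao1 change was not tested. For daidzein over control the log2 change of Hao1 was -0.24 ± 0.07 (1.18-fold lower, adjusted p = 0.390), and -0.23 without daidzein 5. Genistein minus daidzein was -0.14 (95% confidence interval -0.29 to 0.02, adjusted p = 0.614).

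The Hao1 result was close to the threshold. Its log2 change stayed between -0.41 and -0.32 over 20 alternatives, but its adjusted p ranged from 0.0150 to 0.555 and was under 0.05 in 5 of them. These were each array's own scale, 16 added to the rebuilt intensities, a stricter filter at the 60th percentile, a trended prior, and the fit without genistein 4 (adjusted p = 0.0177). With the values as deposited, rescaled but not quantile normalized, and with array medians aligned in place of quantile normalization, the call was lost. The call was lost as well without a filter, with only the 10 arrays compared and with a replicate block. It was also lost without any 1 of the control arrays, of genistein 1, 2, 3 and 5, or of daidzein 5 (adjusted p = 0.0637), which adds to the shared estimate of the spread and left the log2 change at -0.37.

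**Figure D3:**
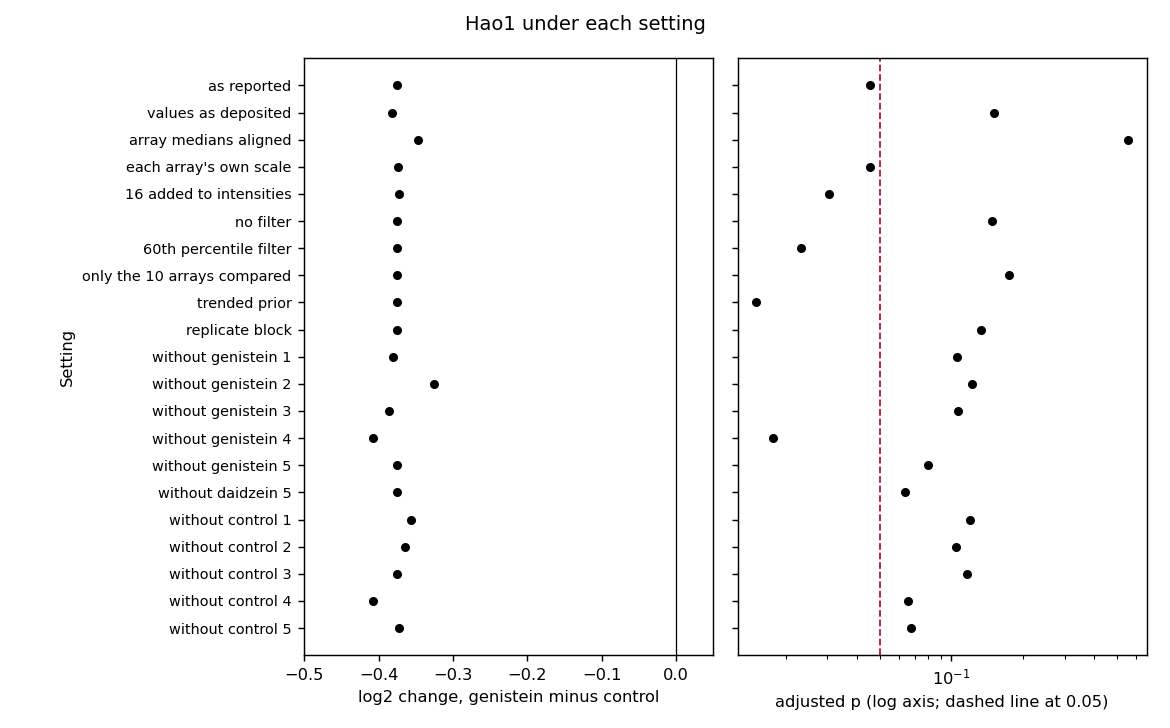
Hao1, genistein minus control: the log2 change (left) and its adjusted p on a log axis (right) as reported and under 20 alternatives, with a dashed line at 0.05. All changes lie between -0.41 and -0.32, while the adjusted p runs from 0.0150 (trended prior) to 0.555 (array medians aligned).

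Hao2 encodes a second hydroxyacid oxidase, which acts on long-chain hydroxy acids. Its levels were 5.47, 5.25, 5.16, 6.63 and 6.23 in genistein 1 to 5, 6.77, 6.38, 6.60, 6.40 and 6.71 in daidzein 1 to 5, and 6.80, 6.52, 6.80, 6.54 and 6.70 in control 1 to 5. The genistein livers were split: 3 lay more than 1 log2 unit below the control mean, genistein 5 lay below every control liver, and genistein 4 lay within the control range. Genistein over control gave a log2 change of -0.93 ± 0.23 (SE) for genistein over control, the largest in size among the 40 genes, which did not pass (adjusted p = 0.115). It was -0.10 for daidzein over control (interval -0.60 to 0.40) and -0.83 for genistein over daidzein (adjusted p = 0.195). Without genistein 4 the changes were -1.15 over control and -1.05 over daidzein, with adjusted p of 0.00911 and 0.0197. That was the only alternative in which Hao2 passed, 1 of 20 over control (adjusted p up to 0.271) and 1 of 19 over daidzein (up to 0.392). Of the fits with 1 array left out, the fit without genistein 4 also had the most probe sets passing in both comparisons.

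Dao encodes D-amino acid oxidase. Its levels were 1.80, 1.91, 2.89, 2.90 and 2.94 in genistein 1 to 5, 3.51, 3.29, 3.18, 2.52 and 3.28 in daidzein 1 to 5, and 3.48, 2.95, 3.51, 3.53 and 3.05 in control 1 to 5. Genistein 1 and 2 were far below the rest, and the other 3 genistein livers lay just under the lowest control liver, while daidzein 4 lay below those 3. Dao had a log2 change of -0.82 for genistein over control (adjusted p = 0.211) and -0.67 for genistein over daidzein (adjusted p = 0.399).

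Catalase (Cat), the enzyme that degrades hydrogen peroxide, had levels of 7.07, 7.00, 6.96, 7.13 and 6.89 in genistein 1 to 5, 7.20, 7.23, 7.19, 7.12 and 7.06 in daidzein 1 to 5, and 7.05, 7.17, 7.02, 7.00 and 7.09 in control 1 to 5. The 3 groups overlapped. Its log2 change was -0.06 for genistein over control (95% confidence interval -0.20 to 0.09), 0.09 for daidzein over control (-0.05 to 0.24) and -0.15 for genistein over daidzein (-0.29 to -0.01, adjusted p = 0.511). A change of Cat by 0.5 log2 units or more lies outside all of these intervals. The remaining matrix genes were Uox, the urate oxidase, Idh1, an NADP-dependent isocitrate dehydrogenase of cytosol and peroxisome, and Ephx2, the soluble epoxide hydrolase. None of them passed, and over the 7 genes of the group the changes ended at 0.22 for genistein and 0.51 for daidzein, both at Ephx2.

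In the straight-chain β-oxidation group 0 of 5 tested genes passed in any comparison, and the genes had changes of opposite sign. Ehhadh, the bifunctional hydratase and dehydrogenase of the classical spiral and a PPARα target, had levels of 4.70, 4.66, 4.77, 4.80 and 4.53 in genistein 1 to 5, 4.54, 4.98, 4.64, 4.77 and 4.86 in daidzein 1 to 5, and 4.28, 4.54, 3.90, 4.22 and 4.52 in control 1 to 5. All 10 isoflavone livers lay above the control mean, though both groups overlapped the upper control livers. Ehhadh had a log2 change of 0.39 ± 0.12 (SE) for genistein over control (1.31-fold, adjusted p = 0.206) and 0.46 ± 0.12 for daidzein over control (1.38-fold, adjusted p = 0.346; 0.44 without daidzein 5). Genistein and daidzein differed by -0.07 (interval -0.33 to 0.19). Ech1, a dienoyl-CoA isomerase, had a change of 0.52 ± 0.23 for genistein over control (adjusted p = 0.424). With 1 array left out it ran from 0.31 (without genistein 3) to 0.69. The Ech1 level was 5.98 in genistein 3 and 4.45 to 5.33 in the other genistein livers.

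Decr2 and Pecr are the reductases that deal with unsaturated acyl-CoA in the peroxisome. Decr2 levels were 4.60, 4.63, 4.60, 4.85 and 4.65 in genistein 1 to 5, 5.18, 5.22, 5.11, 4.89 and 4.92 in daidzein 1 to 5, and 4.88, 5.01, 4.81, 4.96 and 4.78 in control 1 to 5. All genistein livers except genistein 4 lay below all the others, genistein 4 lay within the control range, and the daidzein and control livers overlapped. The log2 change of Decr2 was -0.40 ± 0.09 (SE) for genistein over daidzein (1.32-fold lower, adjusted p = 0.0879), -0.22 for genistein over control (adjusted p = 0.347) and 0.18 for daidzein over control (adjusted p = 0.618). Without daidzein 5 the first of these was -0.43 (adjusted p = 0.104), and without genistein 4 it was -0.45 (adjusted p = 0.0285). Between the isoflavones Decr2 passed in 3 of 19 alternatives, with adjusted p from 0.0285 to 0.403.

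Pecr levels were 6.81, 6.77, 6.78, 6.95 and 6.82 in genistein 1 to 5, 7.19, 7.04, 7.20, 7.25 and 7.20 in daidzein 1 to 5, and 7.14, 7.14, 7.17, 6.80 and 7.13 in control 1 to 5. Every genistein liver lay below every daidzein liver, and 4 of the 5 control livers lay with the daidzein livers while control 4 lay with the genistein livers. Pecr had a log2 change of -0.34 ± 0.08 (SE) for genistein over daidzein (1.27-fold lower, adjusted p = 0.103; -0.34 without daidzein 5, adjusted p = 0.202). It was -0.25 for genistein over control (adjusted p = 0.240) and 0.10 for daidzein over control (interval -0.07 to 0.27).

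**Figure D4:**
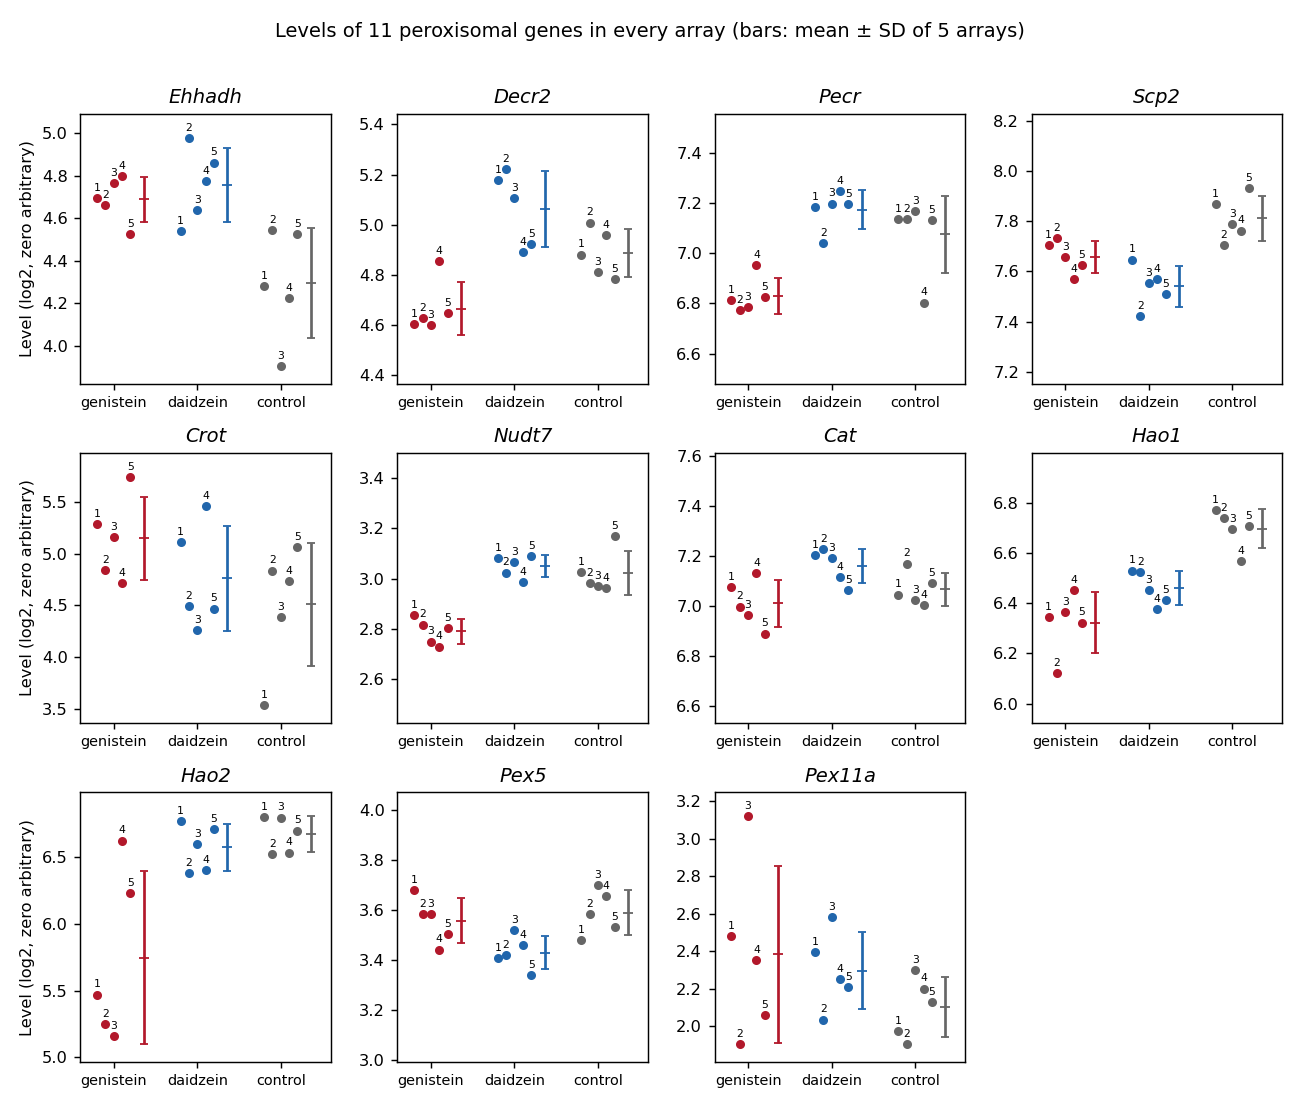
Level of 11 peroxisomal genes in every array (log2, zero arbitrary; numbers are replicate numbers), with mean ± SD of 5 arrays beside each diet. Hao1 is highest in the control arrays, Nudt7 lowest in the genistein arrays, and Hao2 spreads widely within the genistein arrays.

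In the branched-chain, bile acid and α-oxidation group 0 of 6 genes passed in any comparison. Scp2, the sterol carrier protein whose longer form is the thiolase of branched and bile acid side chains, had levels of 7.70, 7.73, 7.66, 7.57 and 7.62 in genistein 1 to 5, 7.65, 7.42, 7.55, 7.57 and 7.51 in daidzein 1 to 5, and 7.87, 7.70, 7.79, 7.76 and 7.93 in control 1 to 5. The daidzein livers lay below all control livers, and the genistein livers lay between, overlapping both. Scp2 had a log2 change of -0.15 ± 0.07 (SE) for genistein over control (adjusted p = 0.425) and -0.27 ± 0.07 for daidzein over control (1.21-fold lower, adjusted p = 0.346; -0.26 without daidzein 5). Genistein over daidzein was 0.12 (interval -0.03 to 0.26). With array medians aligned the changes over control were -0.10 for genistein and -0.15 for daidzein. The dimmer probe set of Scp2 had changes over control of -0.04 for genistein (adjusted p = 0.940) and -0.19 for daidzein (adjusted p = 0.606). In that probe set the daidzein and control livers overlapped.

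Acox3, which in the rat oxidises branched acyl-CoA, had a change of 0.28 for genistein over control (adjusted p = 0.333). Phyh, the hydroxylase that opens the α-oxidation of phytanic acid, had a change of -0.33 for genistein over daidzein (adjusted p = 0.478; -0.30 without daidzein 5). Acox2, the oxidase for bile acid intermediates, varied most of the 40 genes within each isoflavone diet, with an SD of 0.851 over the genistein and 0.770 over the daidzein livers. Its level was under 3.5 in genistein 2 and 3, in daidzein 3 and in control 5, and over 4 in the other 11 livers. The other genes of the group were Hsd17b4, the second bifunctional enzyme, and Hacl1, the lyase of α-oxidation. Over the 6 genes the changes ran from -0.22 to 0.28 with genistein, from -0.28 to 0.18 with daidzein and from -0.33 to 0.18 between them.

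In the group that handles carnitine and coenzyme A 0 of 6 genes passed in any comparison. Nudt7, a diphosphatase that hydrolyses coenzyme A inside peroxisomes, had levels of 2.85, 2.82, 2.75, 2.73 and 2.80 in genistein 1 to 5, 3.08, 3.02, 3.06, 2.99 and 3.09 in daidzein 1 to 5, and 3.03, 2.98, 2.97, 2.96 and 3.17 in control 1 to 5. All genistein livers lay below all others, and the daidzein and control livers overlapped. Nudt7 had a log2 change of -0.23 ± 0.06 (SE) for genistein over control (1.17-fold lower, adjusted p = 0.142) and -0.26 ± 0.06 for genistein over daidzein (1.20-fold lower, adjusted p = 0.121; -0.25 and adjusted p = 0.232 without daidzein 5). Daidzein over control was 0.03 (interval -0.11 to 0.16). The SD of Nudt7 was the smallest of the 40 genes within the genistein and within the daidzein livers, 0.0509 and 0.0434.

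Crot, the octanoyltransferase that passes shortened chains to carnitine, varied widely between rats. Its levels were 5.28, 4.84, 5.16, 4.72 and 5.74 in genistein 1 to 5, 5.11, 4.50, 4.26, 5.46 and 4.47 in daidzein 1 to 5, and 3.54, 4.84, 4.39, 4.73 and 5.06 in control 1 to 5. All 3 groups overlapped, and control 1 was the lowest liver by a wide gap. The log2 change was 0.63 ± 0.29 (SE) for genistein over control (adjusted p = 0.455), 0.25 for daidzein over control (interval -0.38 to 0.88) and 0.39 for genistein over daidzein (interval -0.24 to 1.02). Without control 1 the changes over control were 0.39 for genistein and 0.01 for daidzein. A dimmer tested probe set of Crot had changes over control of 0.34 for genistein (adjusted p = 0.734) and 0.03 for daidzein (adjusted p = 0.987). The other genes were Crat, the short-chain carnitine transferase, the thioesterases Acot4 and Acot8, and Nudt19, a further coenzyme A diphosphatase. Over the 6 genes the changes ran from -0.23 to 0.63 with genistein and from -0.08 to 0.34 with daidzein.

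The ether lipid and membrane groups showed no gene past the test. Gnpat, the acyltransferase of the first step of ether lipid synthesis, had changes of 0.00422 with genistein and 0.09 with daidzein, and its partner Agps was below the filter. The membrane group comprised the pore protein Pxmp2, Pxmp4, the fatty acid transporter Abcd3, Abcd4, which carries cobalamin out of lysosomes, and Mpv17, a relative of Pxmp2 now placed in mitochondria. In these 5 genes an unadjusted p under 0.05 was found in 0 cases in each comparison. Their changes ran from -0.41 to 0.15 with genistein, from -0.22 to 0.10 with daidzein and from -0.19 to 0.12 between them.

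Among the peroxins 0 of 10 passed in any comparison. Pex5, the receptor that carries most matrix proteins to the peroxisome, had levels of 3.68, 3.58, 3.58, 3.44 and 3.50 in genistein 1 to 5, 3.41, 3.42, 3.52, 3.46 and 3.34 in daidzein 1 to 5, and 3.48, 3.58, 3.70, 3.66 and 3.53 in control 1 to 5. The 3 groups overlapped, with the daidzein livers toward the bottom. The log2 change was -0.03 for genistein over control (interval -0.18 to 0.12), -0.16 for daidzein over control (adjusted p = 0.584; -0.14 without daidzein 5) and 0.13 for genistein over daidzein (interval -0.02 to 0.28). The dimmer probe set of Pex5 had changes of the opposite sign in 2 comparisons, 0.11 for daidzein over control and -0.41 for genistein over daidzein (adjusted p = 0.286). For genistein over control its change had the same sign but was larger, -0.30 (adjusted p = 0.437). No direction is therefore given for this gene.

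Pex11a, a membrane peroxin that divides peroxisomes and responds to PPARα in rodents, had levels of 2.48, 1.90, 3.12, 2.35 and 2.06 in genistein 1 to 5, 2.40, 2.04, 2.58, 2.25 and 2.21 in daidzein 1 to 5, and 1.98, 1.91, 2.30, 2.20 and 2.13 in control 1 to 5. The groups overlapped, and genistein 3 was the highest liver. The log2 change was 0.28 (interval -0.11 to 0.68) for genistein over control, 0.19 (-0.20 to 0.59) for daidzein over control and 0.09 (-0.31 to 0.48) for genistein over daidzein. Without genistein 3 the first was 0.10 and the last was -0.10.

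Pex14, a part of the docking site for loaded receptors, had a change of -0.20 for genistein over control (adjusted p = 0.279) and -0.16 for genistein over daidzein (adjusted p = 0.507; -0.20 without daidzein 5). Pex3, which anchors membrane proteins on their way in, had changes of 0.25 (adjusted p = 0.229) and 0.19 (adjusted p = 0.463; 0.18 without daidzein 5) in the same comparisons. The other peroxins were Pex2, Pex6, Pex7, Pex13, Pex16 and Pex19, which serve export of the receptor, import and membrane assembly. Over the 10 peroxins the changes ran from -0.20 to 0.28 with genistein, from -0.16 to 0.19 with daidzein and from -0.18 to 0.22 between the isoflavones. Other probe sets also had the opposite sign for Pex16 with genistein (0.17), and for Idh1 (-0.52) and Pex11a (-0.21) between the isoflavones.

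The median spread between rats was smaller over these genes than over all tested probe sets. Each gene was represented by its probe set of highest mean, whereas all tested probe sets include dimmer ones. The part of this in the spread, and in the shares at an unadjusted p under 0.05, was not tested. The median SD over the 40 genes was 0.162 in the genistein, 0.153 in the daidzein and 0.152 in the control livers, and that over all tested probe sets was 0.207, 0.197 and 0.196. The most variable gene on the control diet was Crot, with an SD of 0.595.

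A list of 44 further peroxisomal genes and a list of 38 other PPARα targets and regulators were read beside them. From each list the 3 tested genes of lowest p over both comparisons with control were named by rule. Of the further peroxisomal genes 30 were tested and 0 passed in any comparison; at an unadjusted p under 0.05 there were 4 positive and 3 negative changes with genistein (23.3% against 11% of all probe sets), 4 and 1 with daidzein (16.7% against 8.25%), and 2 in all between the isoflavones (6.67% against 9.37%). Acsl4, an acyl-CoA synthetase that prefers arachidonic acid, had a change of 0.81 ± 0.16 (SE) for genistein over control, with an adjusted p of 0.0501, and 0.41 for daidzein over control (0.31 without daidzein 5). For genistein it passed in 6 of 20 alternatives, with adjusted p from 0.0175 to 0.239. Dhrs4, a carbonyl reductase of peroxisomes, had changes of -0.35 for genistein over control (adjusted p = 0.0656) and -0.06 for daidzein over control, and with genistein passed in 4 of 20 alternatives (adjusted p from 0.0264 to 0.662). Lonp2, the protease of the peroxisomal matrix, had changes of 0.12 for genistein and 0.29 for daidzein over control (adjusted p = 0.382 for daidzein).

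Of the PPARα targets and regulators 35 were tested and 0 passed in any comparison, with 7 positive and 3 negative changes of unadjusted p under 0.05 for genistein over control (28.6% against 11% of all probe sets). There were 4 and 1 for daidzein over control (14.3% against 8.25%), and 3 of each sign between the isoflavones (17.1% against 9.37%). Their median log2 change was 0.08 with genistein and 0.04 with daidzein. Cd36, the fatty acid translocase, had a change of 1.58 ± 0.37 (SE) for genistein over control (adjusted p = 0.0851; 2.01 and 0.000745 without genistein 4) and 0.32 for daidzein over control. For genistein Cd36 passed in 1 of 20 alternatives, with adjusted p from 0.000745 to 0.203. Ucp3, a mitochondrial carrier, had changes of 0.13 with genistein and 0.50 with daidzein (adjusted p = 0.346). Acadm, the mitochondrial dehydrogenase of medium chains, had changes of -0.27 with genistein (adjusted p = 0.180) and -0.22 with daidzein (adjusted p = 0.481). Further genes of this list were added after their values were seen. Cyp4a1 had changes of 0.46 with genistein (adjusted p = 0.420) and 0.47 with daidzein (adjusted p = 0.589). For Cyp4a3 they were 0.43 (adjusted p = 0.394) and 0.40 (adjusted p = 0.589). With genistein, Cpt1a had a change of 0.47, Lpin2 of -0.64 and Cpt1b of -0.39.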

How the data were processed

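Liver total RNA was labelled with biotin and hybridised to Affymetrix arrays of 1 channel, per the labels' protocols; the 15 arrays were grouped by the diet in their labels and carry the replicate numbers of their titles, which the descriptions do not always share. The values of the 31099 probe sets that the authors deposited are a score: log signals standardized within each array. The authors' background subtraction, probe summary and normalization are not given in the sources used here. Often repeated values, of which 375 of 375 gaps were whole steps within 0.001, gave the log scale, which averaged 2.60 log2 units per deposited unit (2.54 to 2.79). Values were multiplied by this factor, so changes rest on that inference, and the design had foreseen such a score. Array medians differed by more than 0.1, and the arrays were quantile normalized. The alternative called values as deposited left out quantile normalization but kept the multiplication by this factor. After 57 control probe sets were left out, 18625 of 31042 probe sets, those whose mean level reached the 40th percentile, were fitted with limma 3.58.1 (R 4.3.3; lmFit and eBayes, 3 groups, 15 arrays, 12 residual and 2.58 prior degrees of freedom) and adjusted by Benjamini-Hochberg within each comparison. The number of arrays limits the precision. The labels call the arrays biological replicates. The peroxisomal genes, lists and tests were chosen with earlier results of these data known. Values in every array are given for genes that passed, for the 4 genes of lowest p in each comparison, and for Ehhadh, Cat, Pex11a, Crot and Hao2; values of Dao were added after they were seen. Symbols came from the platform annotation, in which 20826 probe sets had 1 symbol, 436 several and 9780 none. Promoter motifs were searched as exact letters. The fit was tested on simulated data, with planted shifts larger than the change of any peroxisomal gene in the fit reported here. That simulation does not show how the fit performs for changes of their size.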

Additional observations from a re-analysis of the deposited data

Results flagged for a closer look

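In 8 of the 120 groups of 5 arrays (40 genes on 3 diets), 6.67%, a single array lay far from the other 4 by Dixon's criterion at a ratio above 0.71. Chance alone gives this in about 1 in 20 groups. Genistein 4 was the far array in 3 of them: Decr2 was 4.85 there, with the nearest genistein liver at 4.65, Pecr was 6.95, with the nearest at 6.82, and Pex3 was 1.60, with the nearest at 1.84. Daidzein 5, the array with pancreatic transcripts, was far in 2, with Pex13 at 4.19 (nearest 4.07) and Pex14 at 1.91 (nearest 2.11). Eci2, an enoyl-CoA isomerase, was 5.13 in daidzein 3, with the nearest daidzein liver at 4.89. On the control diet, Pecr was 6.80 in control 4, with the nearest at 7.13, and Acox2 was 3.31 in control 5, with the nearest at 4.43.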

How the results depend on the processing

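Probe sets passing for genistein over control numbered 60, and 34 with array medians aligned, 14 without a filter, 124 with the 60th percentile filter, 0 with only the 10 arrays compared (1896 at an unadjusted p under 0.05), 120 with a trended prior, 17 with a replicate block, and 10 (without control 1) to 203 (without genistein 4) when 1 array was left out. For daidzein over control there were 3, then 7 with the 60th percentile filter, 8 with a trended prior, and 2 to 8 (without daidzein 1) with 1 array left out. Between the isoflavones there were 21 (28.6% of them higher with genistein), then 9 with medians aligned (11.1% higher), 14.3% higher with the values as deposited, 35 with 16 added to the intensities, 3 without a filter, 67 with the 60th percentile filter, 2 with only 10 arrays, 57 with a trended prior, 2 with the block, and 3 (without daidzein 3) to 136 (without genistein 4) with 1 array left out. Of the peroxisomal genes, the 1 passing with genistein became 0 with values as deposited, medians aligned, no filter, only 10 arrays or the block, and 0 to 2 with 1 array left out, where 2 (Hao1 and Hao2) came without genistein 4. Between the isoflavones 1 gene, Decr2, passed with the 60th percentile filter and with a trended prior, and 0 to 2 with 1 array left out, where Decr2 and Hao2 passed without genistein 4. The count of genes at an unadjusted p under 0.05 was 13 with genistein (32.5% against 11% of all probe sets), and 5 with medians aligned (12.5% against 7.27%). Between the isoflavones it was 9 (22.5% against 9.37%), and 4 with medians aligned (10% against 6.28%). For daidzein it was 4 (10% against 8.25%), 1 with medians aligned (2.5% against 4.94%) or values as deposited, and 3 to 7 with 1 array left out. The median change for daidzein over control ran from 0.021 (without control 1) to 0.069 with 1 array left out. The cause of these shifts was not tested.

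Of 54 gene results, 49 kept their sign under every alternative run. The exceptions were Pex5 for genistein over control, 0.012 with medians aligned, and for genistein over daidzein, -0.14 with the mean of all probe sets; Pex11a for genistein over daidzein, -0.096 without genistein 3 (up to 0.21 without another array) and -0.061 with the mean of all probe sets; Ucp3 for genistein over control, -0.014 without genistein 1 (up to 0.19 without another array); and Dhrs4 for daidzein over control, 0.00184 with medians aligned. Arrays with the same number in their titles did not share a deviation (1 of 15 pairs above r = 0.1, from -0.163 to 0.109), so the block by these numbers is an alternative only. The descriptions number some arrays differently, and pairs by those numbers were not examined. The Hao1 call was lost under the block (adjusted p = 0.134). The fit without daidzein 5 was added after seeing the data. Values of dim probe sets may be limited by background, which was not tested.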
